A study of Arabidopsis thaliana with 14 samples.

Results

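Root RNA of Arabidopsis thaliana seedlings was compared after 3 h on medium without iron and after 3 h on fresh standard medium. The samples were chosen by their labels, which put 2 arrays in the group without iron (-Fe 3 h) and 2 arrays in the standard group, so that 4 of the 14 arrays of the series enter the comparison. The other 10 arrays hold later times on -Fe medium (6, 12, 24, 48 and 72 h, 2 arrays each) and served to estimate the spread between replicates and to place the 3 h values in time. All plants were of the Columbia ecotype, and each array carried RNA from a biological replicate of about 320 pooled whole roots. Plants 5 days old were transferred either to a medium that lacked iron and contained 0.3 mM Ferrozine, a chelator of ferrous iron, or to fresh standard medium with iron. Both groups were harvested 3 h after the move, and no later time in the series has a control with the same time after transfer.

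Arabidopsis roots take up iron by acidifying the soil, secreting coumarins that mobilise ferric iron, reducing it at the root surface and importing ferrous iron. These steps are switched on by bHLH transcription factors, which are themselves under the control of small IMA peptides and of ubiquitin ligases of the BTS family. The IMA peptides promote uptake by holding those ligases back.

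Each array gave 1 linear signal per probe set, with medians between 88.9 and 91.9 on the 4 arrays compared. After the lowest signals were filtered out, 13648 probe sets remained for testing, and 7356 of them had 1 gene in the platform table. Another 6021 had none there, so a gene of the lists below that was not matched may still have an unnamed probe set among them. All differences are log2 fold changes of signal + 16, 3 h without iron minus standard medium, and adding 16 makes the changes of weakly expressed genes look smaller. Across the tested probe sets the correlation was 0.967 between the -Fe 3 h arrays and 0.965 between the standard arrays, and it was 0.961 to 0.974 between arrays of different groups. The geometric mean of 18 hybridisation spike-in probe sets was 378 to 440 on the 48 and 72 h arrays and 2172 to 3232 on the other 10. Because the 48 and 72 h arrays stood apart in this way, the main calls are also given from the 10 other arrays alone. Having 2 arrays in a group sets the precision, and the median 95% interval of a difference reached 0.47 to either side.

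IMA1 (AT1G47400), which encodes a small peptide that promotes iron uptake, was higher after 3 h without iron, as were AT4G00810, which encodes an acidic protein of the ribosomal stalk, and the probe set 247949_at, which has no gene in the platform table used here. These 3 were the probe sets with an adjusted p under 0.05 (0.022% of those tested), and 0 were lower. At an unadjusted p under 0.05, the same limma fit gave 993 probe sets (7.28%), 554 higher (4.06%) and 439 lower (3.22%). Both -Fe arrays lay above both standard arrays for 2439 probe sets (17.9%) and below them for 2151 (15.8%). A difference of over 2-fold was measured in 33 probe sets in the higher direction (0.242%) and in 41 in the lower direction (0.3%). Over all tested probe sets the median difference was 0.013, and the quartiles were -0.16 and 0.18.

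**Figure D1:**
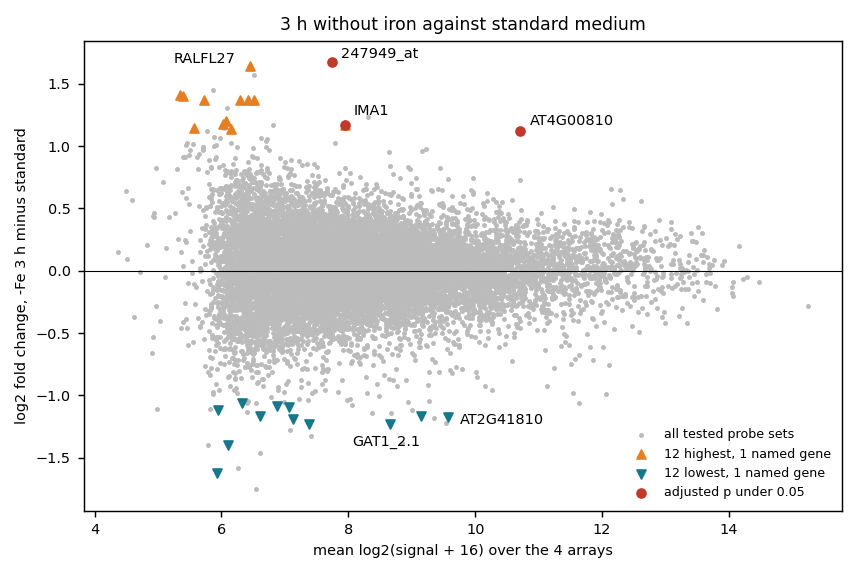
Log2 fold change after 3 h (-Fe minus standard, vertical axis) against the mean log2(signal + 16) of the 4 arrays (horizontal axis), 1 point per tested probe set. The 3 probe sets with an adjusted p under 0.05 are the red circles, between 1.12 and 1.67. Triangles mark the 12 highest and the 12 lowest named genes, and most of the highest ones lie at low signal. IMA1 is among these 12 and is drawn as a circle.

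IMA1 had signals of 409.7 and 302 in the -Fe 3 h roots, against 181 and 120.3 on standard medium. The lower -Fe array was well above the higher standard array, so the groups did not overlap. IMA1 averaged 356 ± 76.3 without iron and 151 ± 43.0 on standard medium (SD, n = 2 each), and its log2 fold change was 1.17 ± 0.20 (SE, 95% interval 0.75 to 1.58, limma adjusted p = 0.0462). In the 10 arrays up to 24 h alone the adjusted p of IMA1 was 0.0791, and in the 4 arrays compared alone it was 0.189. Of the 14 fits that left out 1 array, the call held in 2, those without standard replicate 1 and without -Fe 3 h replicate 2, and the fold change ranged from 0.90 to 1.43. Leaving out an array of a later time left the fold change as it was and gave an adjusted p between 0.0524 and 0.0858. In bulk roots, more RNA per cell and more cells that hold it cannot be told apart.

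AT4G00810 had signals of 2903 and 2075 without iron, against 1097 and 1142 on standard medium. Its standard arrays nearly coincided, while the -Fe arrays differed more from each other. The group means were 2489 ± 586 without iron and 1119 ± 31.9 on standard medium (SD, n = 2 each), a log2 fold change of 1.12 ± 0.19 (SE, 95% interval 0.72 to 1.52, limma adjusted p = 0.0462). The adjusted p of AT4G00810 was 0.0668 in the 10 arrays up to 24 h alone and 0.111 in the 4 arrays compared alone. Of the 14 fits that left out 1 array its call held in 1, that without -Fe 3 h replicate 2, and the fold change ranged from 0.88 to 1.36.

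The probe set 247949_at had signals of 338 and 394 without iron, against 110.4 and 96.5 on standard medium. Its fold change was the highest of the 3. The means were 366 ± 39.6 without iron and 103 ± 9.82 on standard medium (SD, n = 2 each), a log2 fold change of 1.67 ± 0.22 (SE, 95% interval 1.22 to 2.13, limma adjusted p = 0.00337). This call held in all 14 fits that left out 1 array (adjusted p between 0.00172 and 0.0426), in the 10 arrays up to 24 h alone (0.0173) and in the 4 arrays compared alone (0.0307). In the 10 arrays alone it was lost when any of the 4 arrays compared was left out, with adjusted p between 0.0574 and 0.103. Just beyond the threshold stood 256352_at, another probe set without a gene in that table, at -1.18 with an adjusted p of 0.0984.

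**Figure D2:**
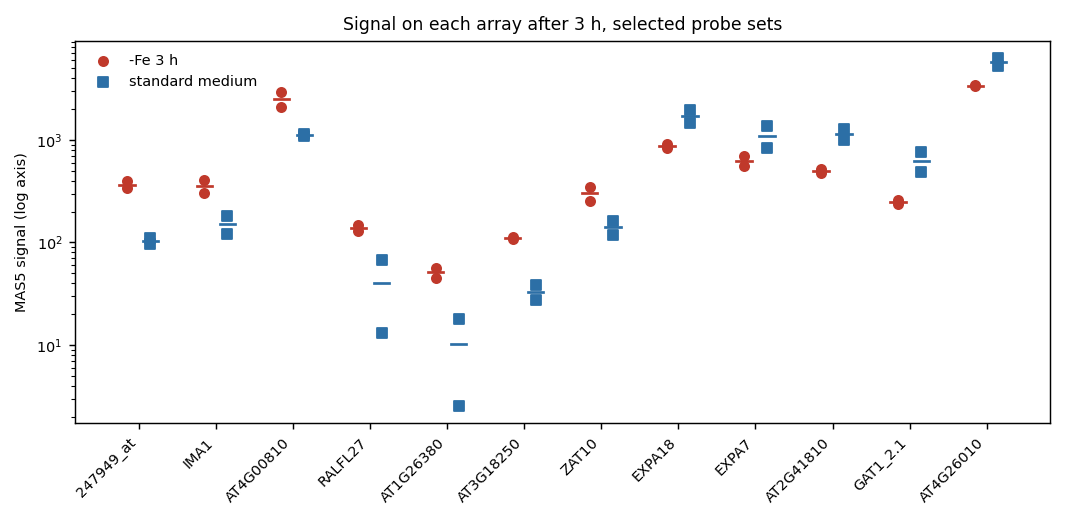
Signal (log axis) of 12 probe sets on each array, with the 2 arrays of -Fe 3 h as red circles, the 2 arrays of standard medium as blue squares, and a line at each group mean. In all 12 the groups do not overlap, beside 17.9% (-Fe above) and 15.8% (-Fe below) of all tested probe sets. Of these, 247949_at, IMA1 and AT4G00810 had an adjusted p under 0.05, and the standard arrays of RALFL27 and AT1G26380 lie far apart at low signal.

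The number of calls depended on single arrays. Leaving out standard replicate 2 gave 23 calls (15 higher, 8 lower), and leaving out -Fe 3 h replicate 2 gave 17 (3 higher, 14 lower). Leaving out standard replicate 1 gave 6, all higher, and leaving out any of the 11 remaining arrays gave 1, which was 247949_at. Where a 3 h or standard array was left out, the remaining array of that group was assumed to vary like the other groups.

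The later arrays show where the 3 h levels of these probe sets stand in the time course. Every comparison with standard medium uses the same 2 standard arrays, so the times are set side by side. The number of probe sets that passed against standard medium was 50 higher (0.366%) and 79 lower (0.579%) at 6 h, 146 (1.07%) and 213 (1.56%) at 12 h, and 220 (1.61%) and 274 (2.01%) at 24 h. Set against the 3 h arrays, 6 h gave 7 higher (0.0513%) and 23 lower (0.169%), 12 h gave 53 (0.388%) and 69 (0.506%), and 24 h gave 138 (1.01%) and 135 (0.989%).

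IMA1 had a mean signal of 151 on standard medium and of 356, 287, 552 and 1303 after 3, 6, 12 and 24 h. Its level at 24 h was above that at 3 h by 1.84 on the log2 scale (limma adjusted p = 6.29e-06), while its differences of 6 h (-0.28) and 12 h (0.62) from 3 h did not pass. AT4G00810 had 1119 on standard medium and 2489, 1933, 1627 and 2067 after 3, 6, 12 and 24 h. Its highest mean was at 3 h, and 0 of the differences between 3 h and a later time up to 24 h passed the test (adjusted p of 0.751, 0.213 and 0.749). For 247949_at the means were 103 on standard medium and 366, 495, 707 and 262 after 3, 6, 12 and 24 h. Its highest mean up to 24 h was at 12 h, and the difference of 12 h from 3 h (0.90, adjusted p = 0.0572) did not pass.

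**Figure D3:**
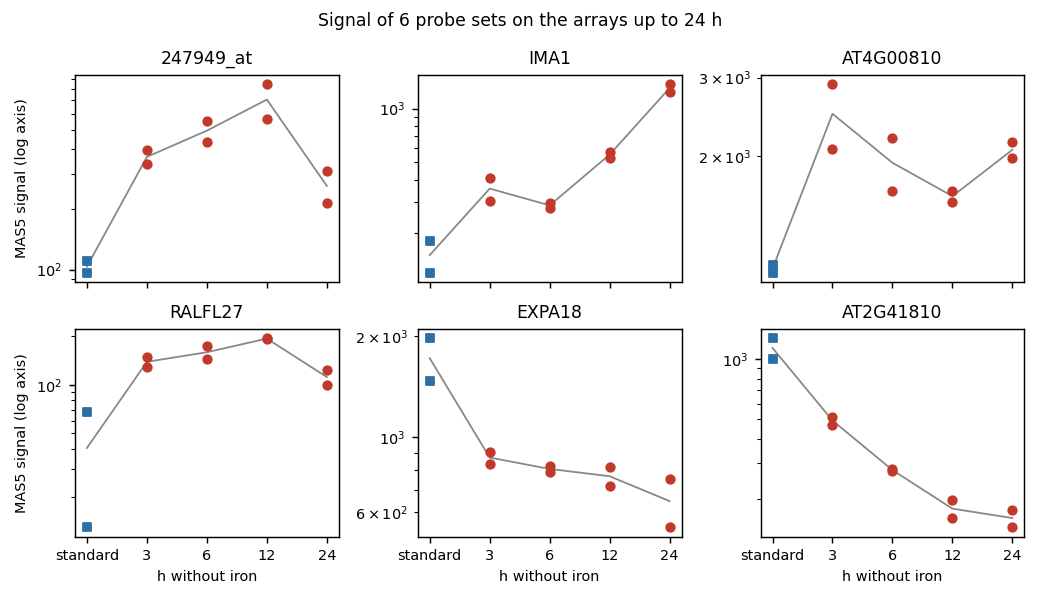
Signal (log axis, a scale of its own for each panel) of 6 probe sets on standard medium (blue squares) and after 3, 6, 12 and 24 h without iron (red circles), 2 arrays each, with a line through the means. IMA1 stands at 409.7 and 302 after 3 h and at 1232 and 1374 after 24 h, while EXPA18 and AT2G41810 lie below both standard arrays after 3 h.

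The 12 highest differences among named genes whose groups did not overlap and whose unadjusted p was under 0.05 lay between 1.14 and 1.64. IMA1 was the 1 of these 12 with an adjusted p under 0.05, and the highest adjusted p among them was 0.591. In 11 of the 12 genes at least 1 standard array had a signal below 49.6, the level of the filter, so most of these values rest on low standard signals.

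RALFL27 (AT3G29780), which encodes a RALF-like signal peptide, had signals of 149 and 129 without iron, against 13.1 and 68.0 on standard medium (1.64, adjusted p = 0.135). AT1G26380, whose product is a berberine bridge enzyme-like oxidase, had 45.5 and 56.6 without iron and 2.57 and 17.8 on standard medium (1.41, adjusted p = 0.0984). AT3G18250 had 107 and 113 without iron and 27.3 and 38.8 on standard medium (1.37, adjusted p = 0.135). In these 3 genes the -Fe arrays were close to each other and the standard arrays spread more widely in proportion.

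ATL5 (AT3G62690), a gene for a RING-type ubiquitin ligase of the ATL family, had signals of 36.6 and 73.4 in -Fe roots and of 6.93 and 13.3 in standard roots, a difference of 1.40. AT4G04990 had 125 and 138 without iron and 22.5 and 68.5 on standard medium, a difference of 1.37. AT5G43450, which encodes an oxygenase of the 2-oxoglutarate and iron dependent family, had 56.6 and 52.3 without iron and 39.6 and 2.18 on standard medium, a difference of 1.15. The standard arrays of AT5G43450 lay far apart. The same held for AT4G39630 (1.37), with 129.8 and 115 without iron and 8.31 and 101 on standard medium, for AT5G48360 (1.20), with 90.2 and 83.0 without iron and 4.12 and 82.6 on standard medium, and for AT3G29130 (1.14), with 88.1 and 90.2 without iron and 9.65 and 72.8 on standard medium. AT2G02590 stood at 1.37 and AT1G10530 at 1.18.

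The 12 lowest differences among named genes, chosen in the same way, lay between -1.62 and -1.06, and 0 of them had an adjusted p under 0.05 (0.0984 to 0.638). In 6 of the 12 at least 1 -Fe array had a signal below 49.6, and in 0 of them did a standard array.

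GAT1_2.1 (AT1G15040), a gene named for a glutamine amidotransferase, had signals of 238 and 259 without iron, against 759 and 481 on standard medium, a log2 difference of -1.23 with the lowest adjusted p of the 12 (0.0984). AT2G41810, which encodes a cell wall protein of the DUF642 family, had 516 and 470.1 without iron and 1007 and 1273 on standard medium (-1.18, adjusted p = 0.140). AT1G34510, a class III peroxidase gene, had 343 and 386 without iron and 1006 and 692 on standard medium (-1.16, adjusted p = 0.449). In each of these genes the -Fe arrays were closer to each other than the standard arrays.

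AT4G02480 had signals of 71.0 and 82.5 without iron, against 213 and 178 on standard medium, a difference of -1.19. AT1G70880 had 69.9 and 81.8 without iron and 189 and 169 on standard medium, a difference of -1.09. In both genes each group was tight relative to the gap between the groups. AT5G23330, a gene for an enzyme of flavin cofactor synthesis, had 6.09 and 64.9 without iron and 93.8 and 96.5 on standard medium (-1.39), and AT4G33130 had 2.80 and 48.8 without iron and 113 and 72.9 on standard medium (-1.62). In this pair of genes the -Fe arrays lay far apart.

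The plastid-encoded genes ycf4 (-1.23), needed to assemble photosystem I, and psbC (-1.16), which encodes a core antenna protein of photosystem II, were also among the 12. AT2G42360, another RING-type ubiquitin ligase gene, stood at -1.12, the glucosyltransferase gene AT2G31790 at -1.09 and AT3G01920 at -1.06. Just outside the 12, AT1G72790 stood at -1.06, with 15.0 and 95.4 without iron and 98.9 and 114 on standard medium.

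Among genes of iron uptake and coumarin secretion, 5 of 20 could be matched to a tested probe set, and 0 were called in either direction at 3 h. These 5 were the coumarin genes BGLU42, S8H, F6'H1 and COSY and the metal transporter gene MTP8. Genes for acidification, reduction of iron at the root surface and import of ferrous iron were not among them. The median of the 5 was -0.28, beside 0.013 over all tested probe sets, and 0 had an unadjusted p under 0.05 (7.28% of all tested probe sets). BGLU42 (AT5G36890), whose beta-glucosidase acts on coumarins before their release, had signals of 421 and 385 without iron, against 298 and 305 on standard medium. Its groups did not overlap, and its difference was 0.40 (95% interval -0.0018 to 0.80, adjusted p = 0.686). S8H (AT3G12900), for the hydroxylase that makes fraxetin, had 9.35 and 63.5 without iron and 33.0 and 56.5 on standard medium, so that its -Fe arrays lay on both sides of the standard arrays (-0.41, interval -1.16 to 0.34).

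F6'H1 (AT3G13610), for the enzyme that opens the scopoletin branch, had 1414 and 2578 without iron, against 2507 and 2148 on standard medium (-0.28, interval -0.78 to 0.22). The metal transporter gene MTP8 (AT3G58060) had 53.0 and 92.6 without iron and 129 and 64.1 on standard medium (-0.32, interval -0.93 to 0.30). COSY (AT1G28680), which encodes coumarin synthase, had 764 and 949.7 without iron and 797 and 858 on standard medium (0.042, interval -0.30 to 0.38). In all 3 genes the groups overlapped. Set against the 3 h arrays, 24 h was higher by 1.61 for F6'H1 (limma adjusted p = 0.000325), 1.91 for BGLU42 (3.30e-06), 5.16 for S8H (1.76e-08) and 2.22 for MTP8 (9.30e-05). The difference of 24 h minus 3 h for COSY, 0.44, did not pass (adjusted p = 0.254).

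Among genes of iron regulation and redistribution, 10 of 28 could be matched to a tested probe set, 11 probe sets in all. IMA1 was called higher and 0 were called lower. At an unadjusted p under 0.05, IMA1 and PYE were higher (4.06% of all tested probe sets) and bHLH115 was lower (3.22%). The median of the 11 was -0.055. PYE (AT3G47640), a bHLH repressor gene that is itself induced by iron shortage, had signals of 252 and 275 without iron, against 239 and 107 on standard medium. The higher standard array nearly reached the -Fe arrays, and the difference of 0.66 (interval 0.12 to 1.19) had an adjusted p of 0.592. bHLH101 (AT5G04150), of the group of bHLH factors that act with FIT to switch on uptake genes, had 170.0 and 131 without iron and 148 and 104 on standard medium. Its groups overlapped, and the difference was 0.24 (interval -0.18 to 0.65), beside 2.79 at 24 h against the same standard arrays.

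The bHLH factors ILR3, bHLH34, bHLH104 and bHLH115 activate the genes of the bHLH101 group and PYE. bHLH115 (AT1G51070) had signals of 1096 and 995 without iron, against 1516 and 1269 on standard medium. Its groups did not overlap, and its difference was -0.40 (interval -0.73 to -0.077, adjusted p = 0.586). The differences were -0.13 for ILR3, -0.19 for bHLH104, 0.15 for bHLH34 and, for their partner bHLH121, -0.02, with overlapping groups in each.

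The ubiquitin ligase genes BTSL1 and BTSL2, whose products restrain iron uptake, were not called either. The probe set 262217_at of BTSL1 (AT1G74770) had signals of 99.8 and 85.8 without iron, against 119.7 and 147 on standard medium, and stood at -0.45. The other probe set of BTSL1, 262218_at, had 966 and 955 without iron and 1054 and 945 on standard medium and stood at -0.055. The groups overlapped in 262218_at (interval -0.37 to 0.26) and not in 262217_at (interval -0.93 to 0.026), and both intervals include 0. BTSL2 (AT1G18910) had 290.1 and 310.0 without iron and 326 and 318 on standard medium, a difference of -0.10 (interval -0.45 to 0.25). Genes of iron storage were not analysed here.

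**Figure D4:**
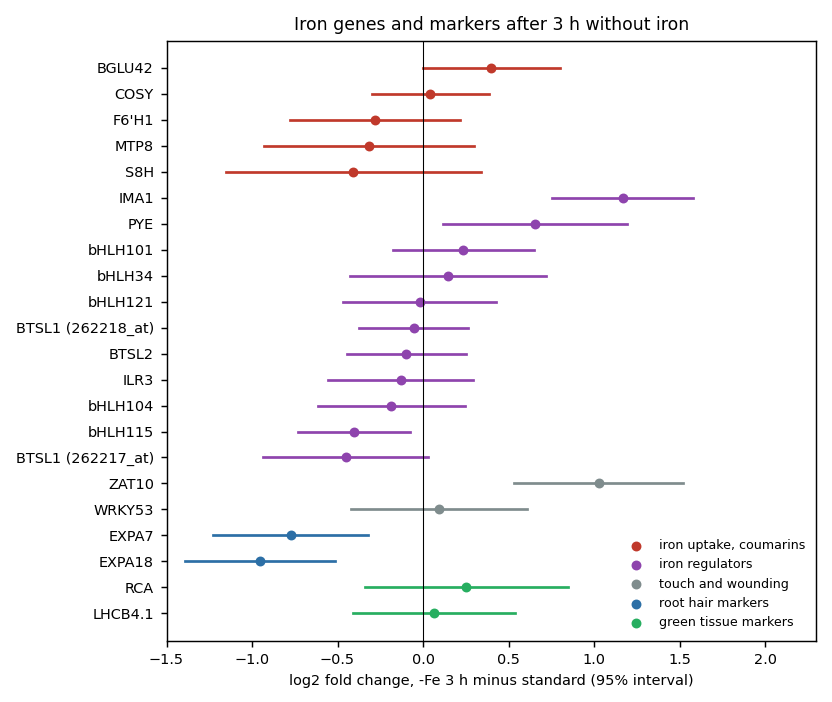
Log2 fold change after 3 h (-Fe minus standard, points) with 95% intervals (lines). Drawn are the tested coumarin genes and MTP8 (labelled iron uptake, coumarins), iron regulators, touch and wounding genes, and root hair and green tissue markers. IMA1 (0.75 to 1.58) has the highest interval. Those of PYE and ZAT10 also lie above 0 and those of bHLH115, EXPA7 and EXPA18 below 0, but of the genes drawn IMA1 alone had an adjusted p under 0.05.

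The genes with the largest changes at 6 h in earlier work on these data were followed back to 3 h. Both times share the 2 standard arrays, so genes chosen for their difference at 6 h already carry those standard values into the 3 h difference, and their 3 h values are given as a description. Of the 16 genes 0 were called at 3 h. At an unadjusted p under 0.05, 8 were higher and 3 lower (4.06% and 3.22% of all tested probe sets), counts that the choice of genes bears on and from which nothing is read. AT1G26380 stood at 1.41 at 3 h and 2.90 at 6 h, RALFL27 at 1.64 and 1.82, AT3G18250 at 1.37 and 1.94, AT1G10530 at 1.18 and 1.68, and AT5G39670 at 1.01 and 1.58. AT1G68620 had signals of 694 and 890.0 without iron for 3 h, against 426 and 367 on standard medium, and stood at 0.96 at 3 h and 1.39 at 6 h. In these 6 genes both -Fe arrays lay above both standard arrays at 3 h, as in 17.9% of all tested probe sets. AT2G23270 (0.82 and 2.97) and AT2G42660 (0.82 and 1.75) had overlapping groups at 3 h.

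Among the genes of that list that were lower at 6 h, AT2G41810 stood at -1.18 at 3 h and -1.97 at 6 h, and AT4G08410 at -1.05 and -1.49. AT3G54040 (-0.38 and -1.30), AT2G43140 (-0.45 and -1.71) and the receptor kinase gene AT1G05700 (-0.44 and -1.28) had -Fe signals below both standard arrays at 3 h. So did 15.8% of all tested probe sets. In contrast, AT4G21870, which encodes a small heat shock protein, had signals of 597 and 595 without iron for 3 h, against 767 and 544 on standard medium. Its difference was -0.11 (interval -0.67 to 0.44) at 3 h, and 6 h minus 3 h was -2.64 (limma adjusted p = 5.65e-05). The aspartyl protease gene AT5G48430 had 5284 and 5204 without iron for 3 h, against 5429.8 and 4604 on standard medium. It stood at 0.069 (interval -0.47 to 0.60) at 3 h, and 6 h minus 3 h was -1.74 (adjusted p = 0.00341). The urease gene URE stood at -0.21 at 3 h, with overlapping groups, and 6 h minus 3 h was -1.19 (adjusted p = 0.0507).

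Markers of root cell types were compared to see whether the sampled tissue differed. EXPA18 and EXPA7, expansin genes of growing root hairs, were the root hair markers matched to a tested probe set, 2 of 8. EXPA18 (AT1G62980) had signals of 835 and 908 without iron, against 1966 and 1469 on standard medium (-0.95, interval -1.39 to -0.51, adjusted p = 0.152). EXPA7 (AT1G12560) had 552 and 690.3 without iron and 1379 and 824 on standard medium (-0.77, interval -1.23 to -0.32, adjusted p = 0.316). Neither passed the test over all probe sets. In both every -Fe array lay below every standard array, as in 15.8% of all tested probe sets. The summed signal of the 2 markers was 1387 and 1598 without iron and 3345 and 2293 on standard medium, and the part of this in other results was not tested.

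The endodermis marker SGN3 (AT4G20140), the 1 of 4 that was tested, had 485 and 484 without iron, against 534 and 536 on standard medium (-0.14). The gene of the replication factor MCM7 (AT4G02060) was the 1 of 4 markers of dividing cells that was tested. MCM7 had 301 and 323 without iron and 209 and 277 on standard medium (0.35, limma adjusted p = 0.751). The cortex marker CO2 was not tested because of its low signal, with 15.9 and 18.5 without iron and 36.1 and 43.0 on standard medium. RCA and LHCB4.1, for the activase of carbon fixation and an antenna protein, mark green tissue (2 of 6 such markers tested) and gave signal in these roots. Their sum was 764 and 699.8 without iron and 614 and 674 on standard medium, and they stood at 0.25 and 0.064. Markers of the non-hair epidermis, the root cap and the stele were not analysed here.

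Several gene families, chosen after values of these data had been seen, held genes related to those above. Their counts stand beside shares over all tested probe sets of 4.06% higher and 3.22% lower at an unadjusted p under 0.05, and beside an overall median of 0.013. Genes already named above, such as RALFL27, AT1G26380, AT1G34510 and AT4G08410, are among the members. The choice of families thus bears on the counts, and nothing is read from them. Of the 6 tested extensin-like genes, which encode structural glycoproteins of the cell wall, 0 were called, 4 were lower (3.22% of all tested probe sets) and 0 higher (4.06%) at an unadjusted p under 0.05. In 5 of the 6 both -Fe arrays lay below both standard arrays (15.8% of all tested probe sets). Their median was -0.62. AT4G08410 had signals of 274 and 389 without iron, against 718 and 674 on standard medium (-1.05, adjusted p = 0.168). AT5G06630 stood at -0.81, HRGP1 at -0.64, AT1G23720 at -0.61, AT3G54580 at -0.54 and AT3G28550 at -0.20. The probe sets of AT4G08410, AT5G06630, HRGP1 and AT1G23720 are of the type that can cross-hybridise with related genes, so these are not independent measures of 4 genes.

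The 10 tested class III peroxidase genes of roots had a median of -0.22, with 3 lower (3.22% of all tested probe sets) and 0 higher (4.06%) at an unadjusted p under 0.05 and 0 called. AT4G26010 had signals of 3351 and 3409.7 without iron, against 6262 and 5208 on standard medium (-0.75, adjusted p = 0.309), and AT3G49960 had 175 and 246 without iron and 384 and 473 on standard medium (-0.98, adjusted p = 0.466). With AT1G34510 these were the 3. The other peroxidases lay between -0.34 (AT5G17820) and 0.033 (AT3G01190). Among 10 tested expansin genes, EXPA7 and EXPA18 were the 2 lower at that level, 0 were higher, and the median was 0.057. Among 8 xyloglucan endotransglucosylase genes, XTH33 (AT1G10550) stood at -0.86 and the median was -0.0065.

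AT4G00810 was set beside the other genes of the ribosomal stalk, the flexible arm of the large subunit that recruits translation factors. Of 13 genes 11 were tested, and AT4G00810 was the 1 called (0.022% of all tested probe sets). The list was made after that call was known, so nothing is read from this count. The other 10 lay between -0.18 (AT2G40010) and 0.35 (AT3G44590), and 9 of them were above 0, beside 51.8% of all tested probe sets. AT1G01100, a relative of AT4G00810 and also for a P1 protein, had signals of 5992 and 5259 without iron, against 4450.1 and 5691 on standard medium (0.16, interval -0.22 to 0.53). The P1 gene AT5G47700 had 3793 and 4998 without iron and 3228 and 5625 on standard medium (0.031, interval -0.45 to 0.52). Both had overlapping groups, and the upper ends of their intervals lay below the lower end for AT4G00810, 0.72. The upper ends for AT3G44590 (0.80), AT3G11250 (0.77) and AT4G25890 (0.76) lay above that value, and those of the remaining stalk genes below it. The differences between AT4G00810 and the other stalk genes were not tested.

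Among 7 tested RALF-like peptide genes, whose products are sensed by receptor kinases at the cell surface, the median was 0.33, with 0 called. RALFL27 and RALFL31 were higher (2 of 7, beside 4.06% of all tested probe sets) and RALFL22 was lower (1 of 7, beside 3.22%) at an unadjusted p under 0.05. RALFL31 (AT4G13950) had signals of 121 and 119.6 without iron, against 58.2 and 73.5 on standard medium (0.74), and RALFL22 had 1658 and 1721 without iron and 2635 and 2099.8 on standard medium (-0.47). Members of the family stood on both sides of 0. Among 12 berberine bridge enzyme-like genes, AT1G26380 and AT1G30700 were higher at that level and the median was 0.20. AT1G30700 had 1275 and 1191 without iron, against 918 and 677 on standard medium (0.63, adjusted p = 0.449). AT1G26410 (0.64), AT1G26420 (0.54) and AT1G26390 (-0.66) had low signals, at most 65.9 on these 4 arrays.

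ZAT10 (AT1G27730), a zinc finger gene induced rapidly by touch and other stresses, had signals of 348 and 256 without iron, against 162 and 118 on standard medium. The groups did not overlap, and the difference of 1.03 (interval 0.53 to 1.52) had an adjusted p of 0.168. WRKY53, the other tested gene of the touch and wounding list (2 of 14 tested), had 95.5 and 64.2 without iron, against 72.7 and 72.4 on standard medium (0.095). The median of 6 tested WRKY genes was 0.066, with WRKY22 at 0.57. The clock gene GI, 1 of 11 listed clock genes, stood at 0.11 (interval -0.27 to 0.49). The ethylene signalling gene EIN3, 1 of 8 listed, stood at 0.041 (interval -0.29 to 0.37). Groups overlapped for GI and EIN3, as for the zinc transporter gene ZIP9 (-0.13), the ascorbate peroxidase gene SAPX (0.085) and the copper chaperone gene CCS1 (-0.061). ZIP9 was the 1 tested of 13 listed metal transport genes, and SAPX and CCS1 the 2 tested of 12 listed antioxidant genes. The other genes of these lists were not tested. Genes of hypoxia and of nitrate assimilation were not analysed here.

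Of 47 tested plastid-encoded RNAs, 5 were lower (3.22% of all tested probe sets) and 2 higher (4.06%) at an unadjusted p under 0.05, 0 were called, and the median was -0.070. rbcL, for the large subunit of Rubisco, had signals of 127 and 129.7 without iron, against 238 and 236 on standard medium (-0.81), and psbA, for a reaction centre protein of photosystem II, had 61.4 and 54.5 without iron and 168 and 82.5 on standard medium (-0.87). The plastid RNA polymerase gene rpoA stood at 0.83 and the ribosomal protein gene rps3 at 0.55. Among 31 tested genes with a UDP-glycosyltransferase name in the annotation, UGT71B1 (0.79) and UGT87A2 (0.76) were higher at that level. Of these 31, 0 were lower, and the median was -0.0093. The glucosyltransferase gene AT2G31790 (-1.09), among the 12 lowest above, was not matched by name and is not counted here. GSTU16 (0.86) was the 1 of 9 tau class glutathione transferase genes, and CYP71B6 (0.38) the 1 of 11 cytochrome P450 genes, at that level.

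**Figure D5:**
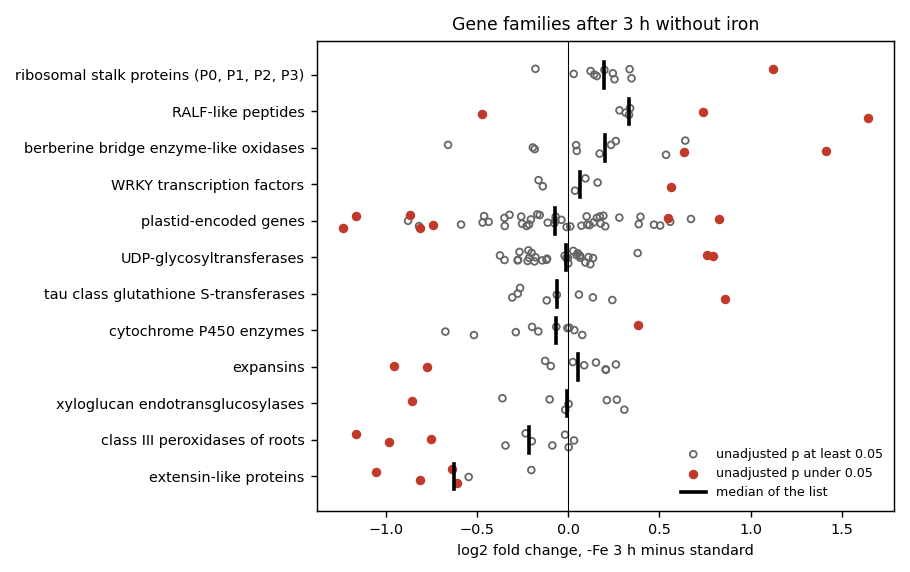
Log2 fold change after 3 h (-Fe minus standard) of each tested probe set of 12 gene families. Filled red points have an unadjusted p under 0.05, open points do not, and the bar is the median of the family. The 6 extensin-like genes (median -0.62) are all below 0, and the other 11 families have members on both sides of 0.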

How the data were processed

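Root RNA was hybridised to Affymetrix arrays, 1 array per sample. The deposited intensities are linear, 1 per probe set, and come from MAS5 per the submitters' processing notes (version not given in the sources used here). Trimmed means per array (2% off each end) were equal, so no further scaling was applied. All 14 columns were matched to samples by name.

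The 64 control probe sets were left out and values were taken as log2(signal + 16). Probe sets in the lowest 40% by mean log2 value over all 14 arrays were dropped (below a signal of 49.6). A probe set with low signal on the 4 arrays compared could thus be kept for its signal at later times. AT1G26380 was such a case, with means of 51.0 at 3 h, 10.2 on standard medium and 800 at 48 h. limma 3.58.1 in R 4.3.3 was fitted to all 14 arrays, with a mean for each group and a trended prior. P-values were adjusted by Benjamini-Hochberg over the 13648 probe sets, with calls at an adjusted p under 0.05. On data simulated for this comparison, with 13648 probe sets, 61 of 100 changes of 2-fold and 100 of 100 of 4-fold were recovered, with 9 false calls. These counts describe the simulated data, and how many true changes were missed on the real arrays is not known. Probe sets were named through the platform table (13513 of 22810 with 1 gene) and RefSeq gene IDs (13436 matched, 77 kept the platform's name). Common names such as IMA1 are textbook names.

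The text names each called probe set, the 12 highest and 12 lowest values among probe sets with 1 gene, groups that do not overlap and an unadjusted p under 0.05, and the tested members of the lists. The members and lists were chosen with earlier results of these data known. The family lists and fits without single arrays among the 10 up to 24 h were added after the values had been seen. Several families were matched by gene name, so members without such a name in the annotation are not in them. A rule to find ribosomal protein genes by name matched 0 genes, and the stalk genes were listed by locus instead. Alternatives covered normalization, pseudocount, filter, prior, arrays fitted, replicate number and fold threshold.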

Additional observations from a re-analysis of the deposited data

Results flagged for a closer look

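IMA1 (AT1G47400) is listed here because its difference from standard medium was not the same after 24 h as after 3 h. The limma test of 24 h against 3 h gave 1.84 on the log2 scale (adjusted p = 6.29e-06), with signals of 1232 and 1374 at 24 h and of 409.7 and 302 at 3 h, higher in 2 of 2 arrays. Of the 3 probe sets called at 3 h it is the 1 for which a test against 6, 12 or 24 h passed.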

How the results depend on the processing

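The total of 3 called probe sets was small enough that most settings moved it. It was 1 with quantile normalization, median centring, no filter, the 4 arrays alone and the 10 arrays up to 24 h alone, and 0 with no trend or with a 1.5-fold threshold, where 1005 and 45 had an unadjusted p under 0.05. With pseudocounts of 1 or 64 it was 4, and with a filter at the 60th percentile or a robust prior 3. Leaving out each of the 14 arrays gave 1 to 23, and each of the 10 arrays in the fit without 48 and 72 h gave 0 to 9. As a replicate block, the replicate number gave 4 calls in all 14 arrays and 94 (26 higher, 68 lower) in the 4 arrays alone. That last fit leaves 1 residual degree of freedom. The labels do not say that a number marks a shared batch. The replicate differences of the 2 groups correlated at 0.111 across probe sets, and over the 21 pairs of groups between -0.14 and 0.27, with 4 pairs over 0.1. The 4 were -Fe 3 h with standard medium, with 6 h (0.154) and with 24 h (0.132), and 48 h with 72 h (0.27). The 25S ribosomal RNA probe set described below was higher in replicate 1 in 7 of 7 groups. The main fit did not pair the samples by number, and whether the numbers mark a shared batch was not tested.

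Of 65 probe sets named or listed with the design, 0 changed sign under the settings that kept all 4 arrays compared. When arrays were left out, 15 changed sign, all of them uncalled: S8H (-1.23 to 0.42), F6'H1 (-0.71 to 0.15), MTP8 (-0.74 to 0.11), COSY (-0.11 to 0.20), the BTSL1 probe set 262218_at (-0.13 to 0.022), bHLH104 (-0.38 to 0.0047), bHLH121 (-0.27 to 0.23), ILR3 (-0.32 to 0.063), AT4G21870 (-0.35 to 0.13), AT5G48430 (-0.050 to 0.19), CCS1 (-0.50 to 0.38), EIN3 (-0.022 to 0.10), SAPX (-0.24 to 0.41), WRKY53 (-0.14 to 0.33) and ZIP9 (-0.43 to 0.17). The causes were not tested. No detection calls were used, so values near or below 49.6 are the least certain.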

Other observations

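The 25S ribosomal RNA control probe set followed the replicate number. It read 1011 and 317 in replicates 1 and 2 of -Fe 3 h and 951 and 380.3 in replicates 1 and 2 of standard medium, and replicate 1 was the higher one in 7 of 7 groups. Of the 3 called probe sets, IMA1 (409.7 and 302) and AT4G00810 (2903 and 2075) had the higher signal in replicate 1 of -Fe 3 h, and 247949_at (338 and 394) in replicate 2. On standard medium IMA1 (181 and 120.3) and 247949_at (110.4 and 96.5) were higher in replicate 1, and AT4G00810 (1097 and 1142) in replicate 2. With the replicate number as a block in the fit of all 14 arrays, the adjusted p was 0.00972 for IMA1 and for AT4G00810 and 0.00276 for 247949_at, and the fold changes were the same.

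The plastid ascorbate peroxidase gene TAPX (AT1G77490) was not tested because of its low signal, with 29.4 and 33.9 without iron for 3 h, against 7.99 and 7.36 on standard medium.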
